A study of Mus musculus with 7 samples.

Results

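The claudin family members Cldn1, Cldn2, Cldn3, Cldn4, Cldn5, Cldn8, Cldn10, Cldn11, Cldn16 and Cldn19 were followed through 7 mouse tissues. The 10 genes were chosen by name, out of 50226 gene names in the deposited expression table, as claudins of epithelia, myelin and endothelium. All 10 had a value in every tissue. RNA-Seq was performed on skeletal muscle, liver, kidney, cortex and 3 fat depots, visceral (VAT), subcutaneous (SCAT) and interscapular brown (BAT), of 36-week-old wild-type (wt) C57BL/6 mice (C57BL/6N in the study's text) on the diet labelled NCD. Total RNA was depleted of ribosomal RNA before directional, paired-end libraries were made. There was 1 library per tissue, so no difference between tissues has a replicate check and no p-value is given. Values are FPKM, fragment counts scaled to transcript length and library size, which put levels of different genes on a scale per length. No read counts were used, and the depth of the libraries is unknown.

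Claudins are membrane proteins that cross the membrane several times and form the strands of tight junctions, the seals between neighbouring epithelial or endothelial cells. Some members close the space between cells, whereas others form pores for particular ions or water. The set of claudins that an epithelium makes is known to differ along the kidney tubule, between hepatocytes and other epithelia, and in myelin, where Cldn11 and Cldn19 seal the layers made by oligodendrocytes and Schwann cells.

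The claudin signature, a short stretch of the first extracellular loop, marks the family and is shown to make clear how alike the 10 genes are. The reference coding sequence (GRCm38, GENCODE) of each gene was searched for glycine or asparagine, leucine and tryptophan followed by a pair of cysteines. Each gene had 1 match, of 45 to 51 bases, and the capitals mark the codons of the opening 3 residues and of both cysteines.
Cldn1: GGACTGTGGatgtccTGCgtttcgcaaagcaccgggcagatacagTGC
Cldn2: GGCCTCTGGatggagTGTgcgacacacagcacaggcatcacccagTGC
Cldn3: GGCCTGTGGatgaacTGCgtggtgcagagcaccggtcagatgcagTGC
Cldn4: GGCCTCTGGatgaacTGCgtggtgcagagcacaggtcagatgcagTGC
Cldn5: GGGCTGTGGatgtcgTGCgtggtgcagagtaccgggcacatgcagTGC
Cldn8: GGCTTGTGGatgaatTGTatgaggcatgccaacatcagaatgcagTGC
Cldn10: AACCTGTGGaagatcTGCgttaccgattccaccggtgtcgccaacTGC
Cldn11: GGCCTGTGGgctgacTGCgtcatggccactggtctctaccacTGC
Cldn16: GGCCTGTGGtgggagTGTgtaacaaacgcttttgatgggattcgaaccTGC
Cldn19: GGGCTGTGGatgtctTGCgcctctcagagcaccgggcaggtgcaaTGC
Cldn10 opens with an asparagine codon, and the other 9 genes open with a glycine codon. Cldn11 and Cldn16 differ from the other 8 in the spacing of the cysteines, with 8 and 10 residues between them instead of 9. Over the whole coding sequence, the 45 pairs had a median identity of 55.3% (range 49.5% to 72.7%). Cldn3 and Cldn4 were the most alike pair, and the longest run of identical bases in any pair was 35, shorter than the reads.

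A claudin was called enriched in a tissue when it reached at least 1 FPKM there and its log2(FPKM + 0.1) was at least 2 above that of each other tissue, a 4-fold difference on that scale. Of the 10 claudins, 8 reached 1 FPKM in at least 1 tissue, and 5 of the 10 were enriched in a tissue, against 23% of the 19087 gene names that reached 1 FPKM. Kidney had 3 of the enriched claudins (Cldn10, Cldn16 and Cldn19), against 2.55% of all expressed names. Liver had 1 (Cldn1, background 3.81%) and cortex had 1 (Cldn11, background 8.34%). None of the 10 was enriched in VAT, SCAT, BAT or muscle, where the background was 1.22%, 2.68%, 0.765% and 3.63%. Kidney had the highest FPKM of 6 of the 8 expressed claudins, whereas 10.4% of all expressed names were highest in kidney. The median log2 difference between a claudin's highest tissue and the next was 2.13 over the 10 genes, beside 0.72 over all expressed names.

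**Figure D1:**
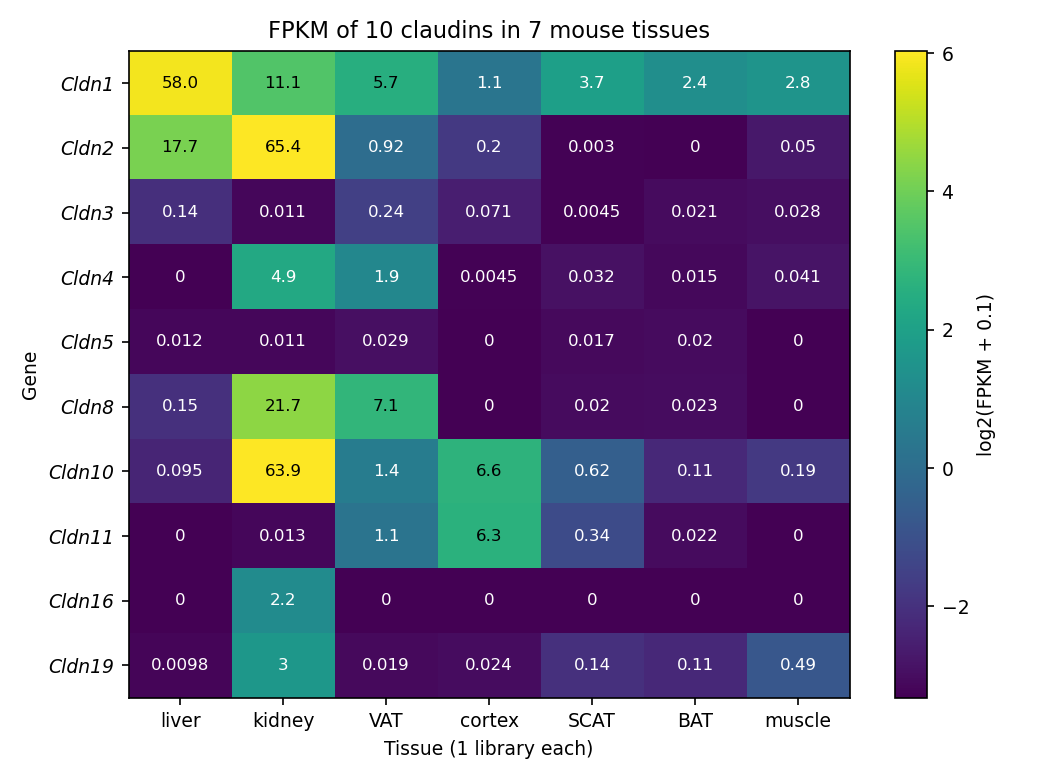
Heat map of the 10 claudins (rows) in the 7 tissues (columns, 1 library each), with the FPKM printed in each field and log2(FPKM + 0.1) as the colour. Cldn2 and Cldn10 are brightest in kidney and Cldn1 in liver, Cldn11 is highest in cortex, and Cldn3 and Cldn5 stay under 1 FPKM in all 7 tissues.

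The claudins of liver and kidney differed in number and in leading gene. The summed FPKM of the 10 genes was 172 in kidney and 76.1 in liver, followed by VAT with 18.4, cortex with 14.2, SCAT with 4.92, muscle with 3.57 and BAT with 2.70. Kidney had 7 of the 10 at or above 1 FPKM, VAT 5, cortex 3, liver 2, and SCAT, BAT and muscle 1 each. In these whole-tissue libraries, fewer cells of a type and less RNA per cell cannot be told apart. Cldn1 made up 76.3% of the summed FPKM in liver, 76.0% in SCAT, 77.7% in muscle and 88.2% in BAT. Among the 10, the leading claudin was thus the same gene in these 4 tissues, although its own level was far higher in liver. Outside the 10, Cldn12 (4.48 FPKM) and Cldn15 (2.43) were above Cldn1 (2.38) in BAT. Cldn12 (4.42) was also above Cldn1 (2.78) in muscle. In kidney, Cldn2 (38.0%) and Cldn10 (37.1%) shared the lead among the 10. In cortex, Cldn10 (46.0%) and Cldn11 (43.9%) did, and in VAT, Cldn8 (38.4%) and Cldn1 (30.7%). The shares count Cldn3 and Cldn5 as near 0, although entries of other names share their bounds, and the part of these genes in those entries is unknown. They also depend on which entry of a name is taken. With all entries of a name summed, Cldn11 led in cortex with 66.4% (16.4 FPKM against 6.55 for Cldn10) and Cldn1 led in VAT with 33.2%. With annotated-strand entries only, Cldn10 led in kidney (92.0%), cortex (54.9%), SCAT (46.1%) and VAT (43.9%), Cldn1 led in liver, BAT and muscle, and the sum fell to 69.5 FPKM in kidney and 7.91 in liver. The number of claudins at or above 1 FPKM was then 4 in kidney, 2 in cortex, 1 in liver and 1 in VAT, and 0 in SCAT, BAT and muscle.

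**Figure D2:**
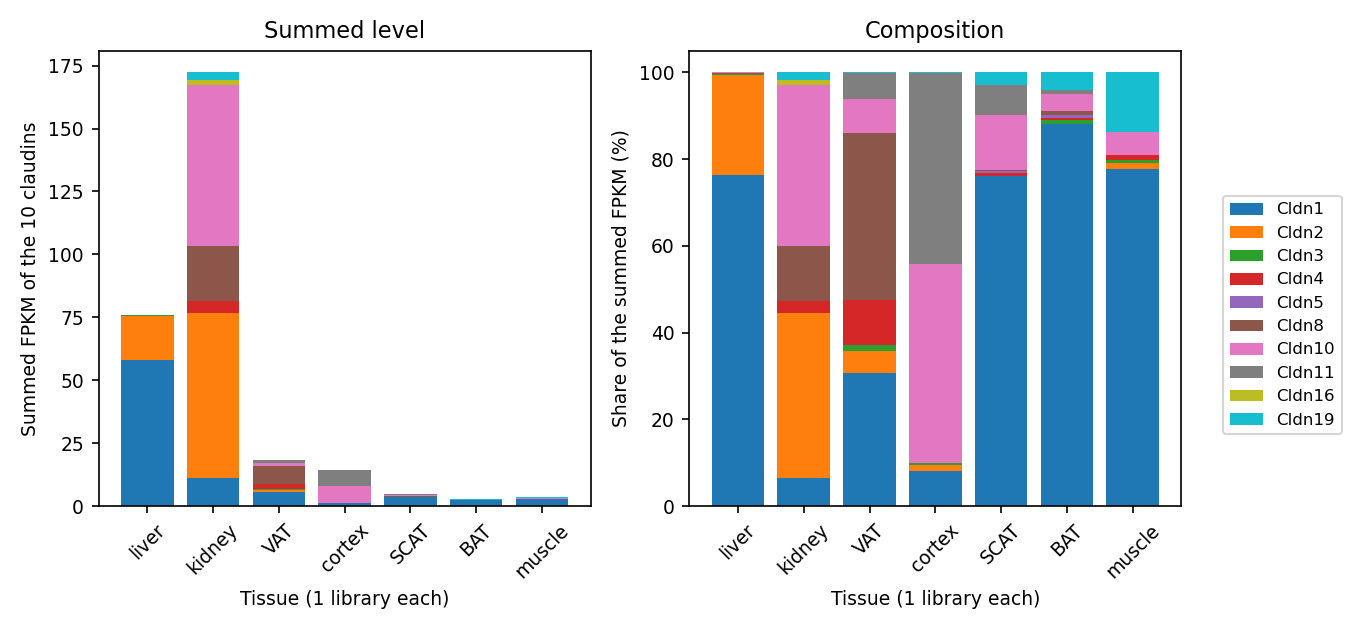
Stacked bars of the 10 claudins in each tissue (1 library each), on the left as summed FPKM and on the right as percent of that sum, with 1 colour per gene. The kidney bar reaches 172 FPKM and the BAT bar 2.70 FPKM, and Cldn1 takes at least 76.0% of the bar in liver, SCAT, BAT and muscle.

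Cldn1, a sealing claudin of liver and skin (chr16:26356642-26371841, minus strand, GRCm38), had 58.0 FPKM in liver, 11.1 in kidney, 5.67 in VAT, 3.74 in SCAT, 2.78 in muscle, 2.38 in BAT and 1.14 in cortex. By this entry it was above 1 FPKM in every tissue, and its log2 difference between liver and kidney was 2.37. Its annotated-strand entry was above 1 FPKM in liver (7.34) and kidney (1.18) only, with 0.110 to 0.641 in the other 5 tissues. The order from SCAT down to BAT spans a small range that a single library per tissue cannot resolve. Cldn2, which forms a pore for sodium and water in the proximal tubule (chrX:139800828-139811386, plus strand), had 65.4 FPKM in kidney and 17.7 in liver. Its other levels were 0.917 FPKM in VAT, 0.197 in cortex, 0.0503 in muscle and 0.00297 in SCAT, and it was listed at 0 in BAT. Both epithelial organs thus stood above the other 5 tissues, and the log2 difference of 1.88 between kidney and liver fell short of the limit for enrichment.

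Cldn10, which makes cation or anion pores depending on its isoform (chr14:118787908-118875489, plus strand), had 63.9 FPKM in kidney, 6.55 in cortex, 1.44 in VAT, 0.621 in SCAT, 0.190 in muscle, 0.109 in BAT and 0.0953 in liver. The ratio of Cldn2 to Cldn10 in kidney was 1.02, but it sets an opposite-strand entry of Cldn2 beside an annotated-strand entry of Cldn10. On the annotated strand Cldn2 had 0.470 FPKM in kidney, below Cldn16 (1.23) and Cldn19 (2.53). The log2 difference of Cldn10 between kidney and cortex was 3.27. The gene has more than 1 start site and its entry sums all isoforms.

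Cldn16 and Cldn19 are known as partners that form a cation pathway in the thick ascending limb, where magnesium and calcium are taken up. Cldn16 (chr16:26463135-26482765, plus strand) had 2.16 FPKM in kidney while the other 6 tissues had a listed value of 0. Cldn19 (chr4:119255414-119262438, plus strand) had 2.99 FPKM in kidney, 0.488 in muscle, 0.143 in SCAT, 0.110 in BAT, 0.0238 in cortex, 0.0191 in VAT and 0.00976 in liver. Its log2 difference between kidney and muscle was 2.39. The ratio of Cldn16 to Cldn19 per length in kidney was 0.721, and 0.485 with annotated-strand entries. Of 6 markers of that segment in kidney, Umod (uromodulin) had 930 FPKM, Slc12a1, the salt cotransporter of the limb, had 139, and the other 4 had 4.81 to 19.7, the lowest being Ptger3. With all entries of a name summed, Cldn16 had 4.93 FPKM and Cldn19 had 8.27.

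Muscle, the tissue next to kidney for Cldn19, held markers of Schwann cells, in whose myelin Cldn19 is also known. Of 5 Schwann cell markers, 3 reached 1 FPKM in muscle, and the list summed to 18.6 FPKM there and 1.71 to 11.9 FPKM in the other 6 tissues. Pmp22 made most of the muscle sum (13.3 FPKM). It had 8.12 FPKM in VAT, where Cldn19 had 0.0191. Sox10 and Ncmap did not reach 1 FPKM in any tissue. Of the 6 thick ascending limb markers, Umod, Slc12a1 and Kcnj1 were listed at 0 in muscle, Bsnd had 0.0208 FPKM, Ptger3 had 0.553, and Casr had 10.1, which is 89.3% of its kidney level. Among all 22 tubule markers, 4 had more than 10% of their kidney level in muscle, as Cldn19 did with 16.3%, although its annotated-strand entry had 4.63%. That entry had 0.117 FPKM in muscle, 0.106 in BAT and 0.0983 in SCAT. The part of the Schwann cell markers in the Cldn19 value was not tested.

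Cldn4 and Cldn8, claudins of the collecting duct and of other tight epithelia, shared a profile with kidney highest and VAT next. Cldn8 (chr16:88560828-88563183, minus strand) had 21.7 FPKM in kidney, 7.08 in VAT and 0.148 in liver, 0.0230 in BAT and 0.0202 in SCAT, and was listed at 0 in cortex and muscle. Cldn4 (chr5:134945119-134946934, minus strand) had 4.86 FPKM in kidney and 1.92 in VAT, at most 0.0413 in cortex, SCAT, BAT and muscle, and was listed at 0 in liver. The log2 difference between kidney and VAT was 1.61 for Cldn8 and 1.30 for Cldn4, so neither was enriched. On the annotated strand both genes were under 0.03 FPKM in every tissue. Aqp2, the water channel of the collecting duct, had 44.1 FPKM in kidney and 0.198 in VAT, or 0.449% of its kidney level. That was the lowest share among 6 collecting duct markers, and the highest was 8.93% (Scnn1b).

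The VAT library also held markers of epithelial, epididymal and mesothelial cells. All 9 epithelial markers reached 1 FPKM in VAT, as in kidney, against 3 in liver, 1 in muscle and none in cortex, SCAT and BAT. Their FPKM in VAT was 3.32% to 582% of that in kidney, with a median of 83.6%. By contrast, 22 markers of the tubule from the proximal part to the collecting duct had a median of 0.751% of their kidney level in VAT, and 2 of the 22 (Pvalb and Ptger3, named after their values were seen) were above 10%. Of the 7 claudins at or above 1 FPKM in kidney, Cldn1 stood at 50.9%, Cldn4 at 39.5%, Cldn8 at 32.6%, Cldn10 at 2.25%, Cldn2 at 1.40% and Cldn19 at 0.639% of the kidney level in VAT, and Cldn16 was listed at 0 there. With annotated-strand entries the share was 54.3% for Cldn1. It was 52.2% for Cldn4, 6.95% for Cldn2 and 100.2% for Cldn8, at levels under 0.5 FPKM in both tissues. Of 7 epididymal markers, 5 reached 1 FPKM in VAT, with Crisp1, whose entry also names Crisp3, at 1386 FPKM, Lcn5 at 1119, Spink8 at 1071, Adam7 at 134 and Rnase9 at 56.8, and Lcn9 was listed at 0. Their summed level was 3767 FPKM in VAT and at most 11.7 in any other tissue. Markers of other surface cells were present as well. Of 5 mesothelial markers, 4 were highest in VAT, beside 5.28% of all expressed names. Among them were Krt19, which is also counted as epithelial, at 6.83 FPKM, and Wt1, at 1.82 against 1.63 in kidney. The other marker, Msln, whose entry also names Rpusd1, was highest in cortex (4.06 FPKM). The mesothelial list summed to 16.8 FPKM in VAT and to at most 4.50 elsewhere. Of 5 markers of keratinised and mammary epithelium, 3 (Krt14, Krt5 and Krt15) were enriched in VAT, at 1.53 to 2.58 FPKM, against 1.22% of all expressed names, and Trp63 was enriched in muscle, with 5.25 FPKM there. The part of these cells in the claudin levels of VAT was not tested.

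**Figure D3:**
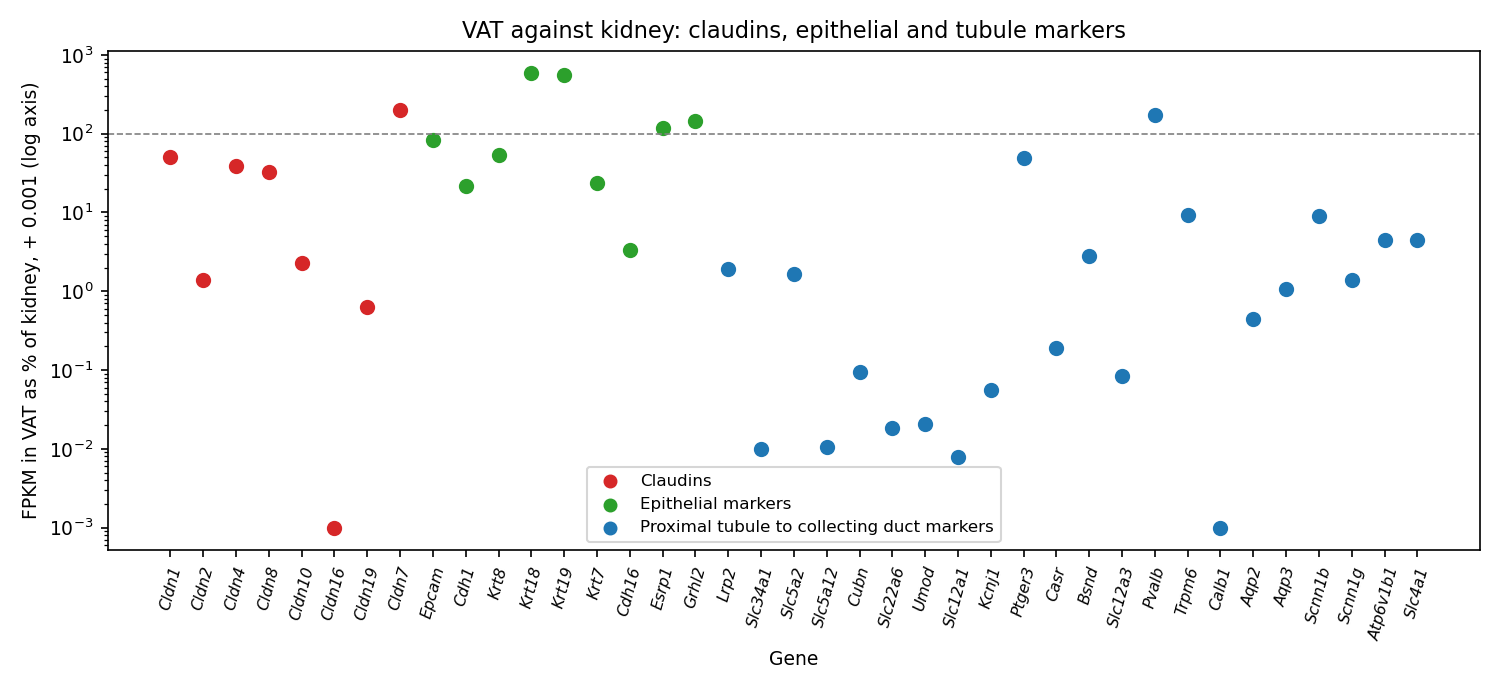
FPKM in VAT as percent of the FPKM in kidney (log axis, 0.001 added), with 1 point per gene and 1 library per tissue. Shown are those of the 10 claudins, epithelial markers and tubule markers with at least 1 FPKM in kidney. Cldn7 was added after its values were seen, and no other further claudin is shown. Cldn1, Cldn4, Cldn8 and Cldn7 lie among the epithelial markers, most tubule markers lie under 10%, and Cldn16 and Calb1 were listed at 0 in VAT.

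The other fat depots held markers of further cell types. In SCAT, 6 pancreatic acinar markers summed to 114 FPKM (at most 9.16 in any other tissue) and 5 were enriched, and 5 lymphocyte markers summed to 139 FPKM (at most 4.86 elsewhere) and all 5 were enriched, against 2.68% of all expressed names. In BAT, 4 skeletal muscle markers with values summed to 687 FPKM, below muscle itself. The part of these cells in the claudin levels of SCAT and BAT was not tested.

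Markers of liver cells were also read in VAT, at a smaller share of their liver level than Cldn1. Cldn1 had 9.78% of its liver FPKM in VAT and Cldn2 had 5.19%. With annotated-strand entries the shares were 8.73% for Cldn1 and 10.3% for Cldn2, which then had only 0.317 FPKM in liver. The 3 hepatocyte markers with a value in liver had 0.701% to 1.09%. The liver values of Alb and Serpina1c are missing, because the table lists them at 0 with the status that marks too little usable data.

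Cldn11, the claudin of central myelin and of the Sertoli cell barrier (chr3:31149920-31164324, plus strand), had 6.26 FPKM in cortex, 1.13 in VAT, 0.340 in SCAT, 0.0219 in BAT and 0.0133 in kidney, and was listed at 0 in liver and muscle. The log2 difference between cortex and VAT was 2.38. All 8 oligodendrocyte and myelin markers reached 1 FPKM in cortex, summing to 342 FPKM. In VAT the same 8 markers summed to 3.49 FPKM, and their median level was 0.686% of that in cortex, while Cldn11 had 18.0%. Cnp, with 20.4%, was above Cldn11 in this respect, and Mog had 8.16%. Cortex was the tissue next to kidney for Cldn10, at 10.2% of the kidney level. The library labelled cortex held all 4 neuronal markers, with a summed level of 313 FPKM and at most 0.882 in any other tissue.

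Cldn5 is known as the leading claudin of endothelium, above all at the blood-brain barrier, and its entry did not follow the endothelial markers. Cldn5 (chr16:18776847-18778262, plus strand) had 0.0293 FPKM in VAT, 0.0200 in BAT, 0.0172 in SCAT, 0.0116 in liver and 0.0112 in kidney, and was listed at 0 in cortex and muscle. All 10 endothelial markers reached 1 FPKM in VAT, SCAT, BAT and muscle, 9 did in liver and in kidney, and 5 did in cortex. In cortex, where Cldn5 was listed at 0, all 6 blood-brain barrier endothelial markers with values reached 1 FPKM, but the list was not particular to cortex. Its summed level was 84.7 FPKM in liver, 52.5 in cortex, 46.3 in muscle and 7.66 to 11.6 in the other 4 tissues. Of the 6, Slco1c1, a transporter of that barrier, was enriched in cortex (11.7 FPKM), Mfsd2a in liver (42.5) and Itm2a in muscle (34.3). The others were not enriched, with Slc2a1 highest in cortex (5.38 FPKM), Slco1a4 in liver (39.3) and Abcb1a in muscle (9.25). Pecam1 (CD31) had 26.6 FPKM in BAT, 25.2 in SCAT, 20.0 in VAT, 14.3 in muscle, 8.01 in kidney, 4.80 in liver and 1.46 in cortex. The Cldn5 entry was thus too near 0 to be compared in order with the endothelial markers. Its values below 1 FPKM give no account of endothelial claudins.

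The Cldn5 entry shares its bounds with 2 entries of other names. One is named Cdc45, a replication gene that the annotation places 2184 bases away on the minus strand, and had 24.6 FPKM in VAT, 13.0 in SCAT, 9.86 in BAT, 6.28 in muscle, 5.18 in cortex, 2.28 in liver and 1.79 in kidney. The other, named Ufd1, had 9.46 to 24.1 FPKM in all 7 tissues. The table does not show how much of either belongs to Cldn5.

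**Figure D4:**
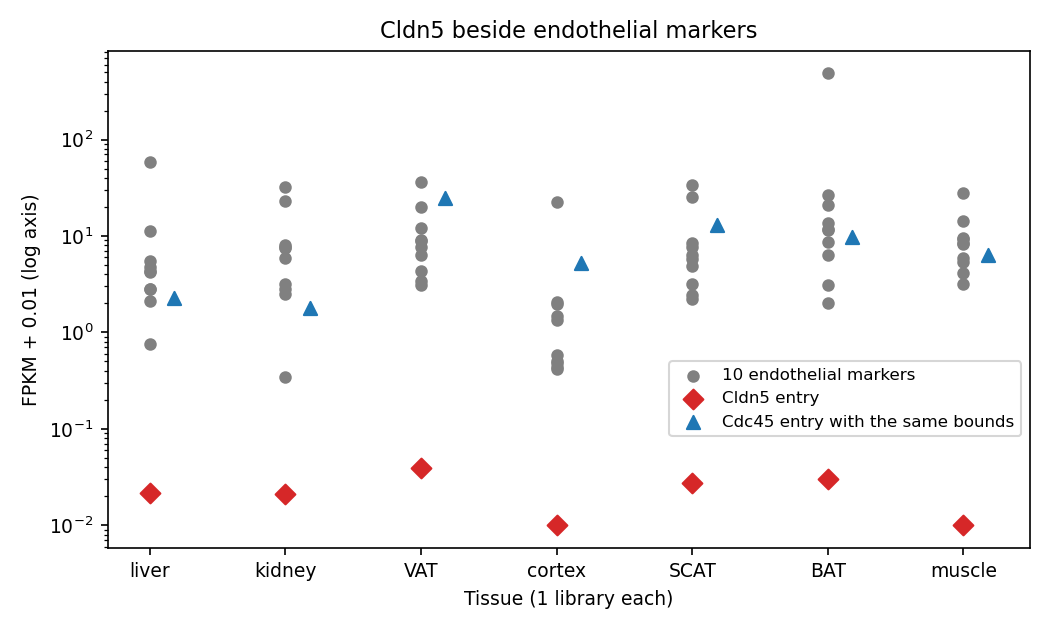
FPKM (0.01 added, log axis) of 10 endothelial markers, of the Cldn5 entry and of the Cdc45 entry with the same bounds in each tissue, 1 library each. The Cldn5 points lie at or under 0.04 on this scale in all 7 tissues, below every endothelial marker, and the Cdc45 points lie between 1.79 and 24.6 FPKM.

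Cldn3, a sealing claudin of many epithelia, was also near 0 under its own name. Cldn3 (chr5:134986214-134987472, plus strand) had 0.245 FPKM in VAT, 0.141 in liver, 0.0708 in cortex, 0.0275 in muscle, 0.0207 in BAT, 0.0114 in kidney and 0.00452 in SCAT. An entry with the same bounds is named Wbscr25, an antisense gene that overlaps Cldn3 by 40 bases in the annotation. It had 25.9 FPKM in liver, 9.92 in VAT and 1.45 in kidney, and at most 0.175 in the other 4 tissues. To which of the 2 genes these values belong cannot be read from the table.

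The strand of an entry was read from the order of the table, which runs through each chromosome strand by strand. Of 12326 protein-coding names with 1 entry, 99.98% lay on their annotated strand by this reading. In all 7 claudins with entries on both strands (Cldn1, Cldn2, Cldn4, Cldn8, Cldn11, Cldn16 and Cldn19) the highest entry, the 1 used here, lay on the opposite strand, beside 44.9% of 8790 protein-coding names with entries on both strands. The other 3 claudins had 1 entry each, on the annotated strand. The annotated-strand entry had 7.34 FPKM for Cldn1 in liver, 5.16 for Cldn11 in cortex, 1.23 for Cldn16 and 2.53 for Cldn19 in kidney, all above 1 FPKM. It was far lower in kidney for Cldn2 (0.470), Cldn4 (0.0278) and Cldn8 (0.0254). In 6 of the 7 claudins with more than 1 entry, the highest tissue was the same in each entry, and Cldn8 was the exception. How reads were divided between the entries was not tested.

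**Figure D5:**
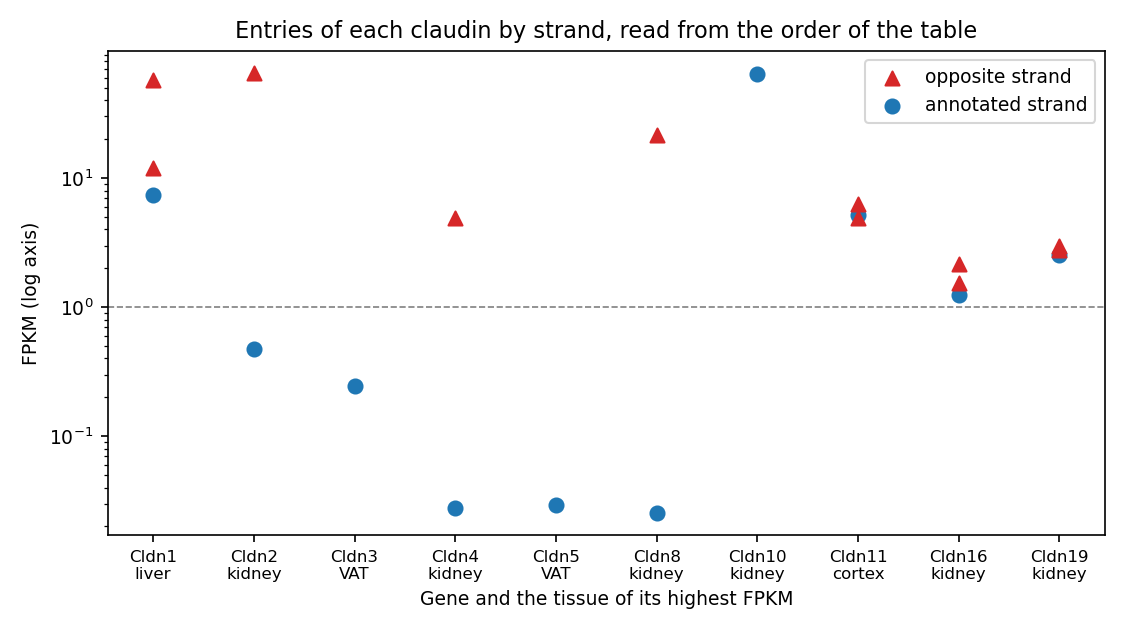
FPKM (log axis) of every entry of each claudin in the tissue named under it (1 library each), with circles for the annotated strand and triangles for the opposite strand, and a dashed line at 1 FPKM. The entries of Cldn11, Cldn16 and Cldn19 lie close together, whereas those of Cldn2, Cldn4 and Cldn8 lie far apart.

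The neighbours Cldn1 and Cldn16 were highest in different tissues, liver and kidney. They lie 91.3 kb apart on chromosome 16 with no annotated gene lying wholly between them. Cldn4 and Cldn3 lie 39.3 kb apart on chromosome 5. The 250 bases before the start of Cldn1 and Cldn16 (RefSeq, GRCm38.p6) are shown for this pair, with matches in capitals to the core promoter letters TATAAA, to GTTAAT, which is part of the site of the liver and kidney factor HNF1, and to GGGCGG, known as the GC box, searched on both strands.
Cldn1, chr16:26371840-26372089, minus strand: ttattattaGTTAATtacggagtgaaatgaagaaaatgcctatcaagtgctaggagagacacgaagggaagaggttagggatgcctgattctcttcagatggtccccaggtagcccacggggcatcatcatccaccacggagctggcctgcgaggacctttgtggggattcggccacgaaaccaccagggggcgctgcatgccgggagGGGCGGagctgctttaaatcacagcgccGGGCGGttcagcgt
Cldn16, chr16:26462885-26463134, plus strand: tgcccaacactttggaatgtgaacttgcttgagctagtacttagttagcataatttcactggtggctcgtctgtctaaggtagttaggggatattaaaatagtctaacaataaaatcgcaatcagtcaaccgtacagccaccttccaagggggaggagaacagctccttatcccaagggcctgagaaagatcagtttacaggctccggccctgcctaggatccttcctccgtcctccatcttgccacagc
The Cldn1 window held GTTAAT 1 time and GGGCGG 2 times, and the Cldn16 window held none of these letters. Over the same 250 bases of all 32851 promoter windows, 12.4% held TATAAA, 6.43% GTTAAT and 32.7% GGGCGG. The table held windows for 9 of the 10 claudins, Cldn8 being the other, and TATAAA was found in that of Cldn2 only. A match of letters is a description and not a binding site.

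Among 15 further claudins with values, 5 reached 1 FPKM with an entry of their own, and 2 were enriched, against 23% of all expressed names. By tissue this was 1 in liver and 1 in VAT, where the background was 3.81% and 1.22%. Both calls were lost with annotated-strand entries only, with a pseudocount of 1 and with a minimum of 5 FPKM. Cldn14 had 2.01 FPKM in liver and 0.295 in VAT, with a log2 difference of 2.42. Cldn23 had 1.62 FPKM in VAT and 0.0868 in cortex, a log2 difference of 3.21. Cldn12, a broadly made claudin, was the only further claudin above 10 FPKM, with 14.9 in liver, 10.2 in kidney and 1.27 to 4.48 in the other 5 tissues. Cldn7, picked after its values were seen, had 6.86 FPKM in VAT and 3.47 in kidney and at most 0.222 elsewhere. It shared these tissues with Cldn4 and Cldn8, which were highest in kidney and not in VAT. Cldn15, picked in the same way, was also highest in VAT (4.31 FPKM), with 2.43 in BAT, 1.70 in kidney and 1.66 in SCAT. Cldn20 shares its entry with Tiam2, and Cldn22 and Cldn24 share 1 entry, so these 3 names, which also reached 1 FPKM, were left out of the count.

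Of the genes of other tight junction proteins, none was enriched in a tissue, beside 23% of all expressed names. All 21 partner genes with values reached 1 FPKM. Of the 18 with an entry of their own, 9 were highest in kidney (10.4% of all expressed names), 6 in liver (16.3%), 2 in cortex (20.7%) and 1 in muscle (23.3%), and none in VAT (5.28%), SCAT (9.92%) or BAT (14.1%). Lsr, a protein of junctions between 3 cells, had 22.0 FPKM in liver and 6.49 in kidney. F11r (JAM-A) had 16.2 in liver, 12.2 in kidney and 12.1 in BAT. Tjp1 (ZO-1), the scaffold under the strands, had 5.17 to 13.7 FPKM in all 7 tissues, and Cgn (cingulin) had 21.2 in kidney and 0.319 in cortex. Its relative Cgnl1 had 18.2 FPKM in kidney and 11.7 in BAT. The polarity and scaffold genes Patj, Pard3, Magi3 and Mpdz had at most 12.7 (kidney), 19.9 (liver), 11.1 (liver) and 26.9 (muscle). Tjp3, Jam2 and Igsf5 share entries with other genes, so their levels of 46.3 FPKM in muscle, 29.8 in BAT and 57.8 in cortex cannot be given to them alone, and they were left out of these counts.

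The genes with profiles most like a claudin's were found by the smallest root mean square difference of log2(FPKM + 0.1), centred over the 7 tissues, among all expressed names. For Cldn8 they were Pax8 (0.29), Rab25 (0.43) and Defb29 (0.59), all with kidney highest and VAT next. For Cldn4 they were Atp6v1g3 (0.30), Arhgef38 (0.42) and Aqp6 (0.47). For Cldn1 they were Ccdc152 (0.31), Tns4 (0.34) and Selenop (0.35), for Cldn2 Slc22a7 (0.51), Wfdc2 (0.66) and Iyd (0.71), and for Cldn10 Slco4c1 (0.41), Car12 (0.61) and Nrxn2 (0.69). Iyd differed in order from Cldn2, with 35.0 FPKM in liver and 24.4 in kidney. For Cldn11 they were Chst10 (0.44), Dkkl1 (0.51) and Sh3gl3 (0.51), and for Cldn19 Slc16a9 (0.49), Muc1 (0.58) and Sprr1a (0.60). The nearest to Cldn16, Gsdmc2 (0.04), Kcne1 (0.07) and AC153937.3 (0.10), were genes near 2 FPKM in kidney and at or near 0 elsewhere. No such search was made for Cldn3 and Cldn5, which did not reach 1 FPKM.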

How the data were processed

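RNA-Seq of 7 tissues, 1 library each, was grouped by the tissue labels. The authors trimmed reads with flexbar, filtered ribosomal reads with Bowtie2 2.2.9, aligned to GRCm38 with STAR 2.6.0c, assembled transcripts with Cufflinks 2.2.1 and ran cuffdiff (versions from the submitters' processing notes). Cuffdiff's library type and scaling are not given in the sources used here. The authors deposited FPKM for 94339 entries in 21 tissue comparisons. Their fold changes, statistics, p-values and q-values were not used.

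Names sharing an entry were separated, the entry with the highest maximum FPKM was kept for each name, 151 failed entries were dropped and 225 low-data zeros were set to missing. Differences were taken on log2(FPKM + 0.1) with Python 3.11.15 and pandas 2.3.3, and the call rule was tested on simulated data. No test was run, because there are no replicates. The members and gene lists were chosen with earlier results of these data known. Named genes were the 10 claudins, listed junction genes enriched or of at least 10 FPKM, listed markers, and the 3 names nearest each claudin. Cldn7 and Cldn15 were added after their values were seen. A planned protein comparison was replaced by coding sequence identity (Biopython 1.88). Alternatives were another pseudocount, minimum, fold limit or scaling, entry choice, and leaving out kidney. One marker gene is not reported here by name.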

Additional observations from a re-analysis of the deposited data

How the results depend on the processing

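No paired analysis was possible because there was a lone library for each tissue. With a pseudocount of 1, kidney-enriched claudins fell to 1, cortex to 0, and further claudins in liver and VAT to 0, with log2 differences of 1.77 for Cldn11, 1.66 for Cldn16 and 1.42 for Cldn19. The share of all names enriched was then 1.67% in kidney, 0.623% in VAT, 5.49% in cortex and 1.33% in SCAT. With a minimum of 5 FPKM, kidney had 1 claudin, the further claudins 0 in liver and 0 in VAT, and the shares were 2.93% in liver, 1.82% in kidney, 0.603% in VAT, 5.35% in cortex and 1.53% in SCAT. Without a minimum the shares were 2.31% in liver, 1.62% in kidney, 0.465% in BAT and 2.13% in muscle. A 2-fold limit gave 6 claudins and 2 further claudins (Cldn22 and Cldn24, with a shared entry) in kidney, partners numbering 2 in liver, 3 in kidney, 1 in cortex and 1 in muscle, and shares of 6.83% (liver), 4.21% (kidney), 2.1% (VAT), 4.63% (SCAT), 2.69% (BAT) and 7.75% (muscle). A 10-fold limit left 1 claudin in kidney, 0 in liver and 0 in cortex, further claudins 0 in liver and 0 in VAT, and shares of 2.28% (liver), 1.44% (kidney), 0.791% (VAT), 5.34% (cortex), 1.07% (SCAT), 0.21% (BAT) and 1.9% (muscle). With kidney left out, 2 claudins each were enriched in liver, VAT and cortex, beside 5.76%, 1.58% and 9.33% of names, and the log2 differences were 4.13 for Cldn2, 3.84 for Cldn4, 4.86 for Cldn8, 0 for Cldn16 and 1.27 for Cldn19. Using annotated-strand entries only, chosen after seeing the data, no further claudin was enriched in liver (0) or VAT (0), Cldn8 was highest in VAT, and the log2 difference was 0.45 for Cldn2, 0.16 for Cldn4 and 0.00061 for Cldn8. Cldn4 and Cldn8 were then under 0.03 FPKM in every tissue, where the pseudocount of 0.1 keeps any difference under the limit, so these 2 values say nothing of stability. These changes follow from the limits or the entries left in. The differences of Cldn16 depend on the pseudocount, since the other tissues are listed at 0. Median scaling moved libraries by -0.49 to 0.38 on the log2 scale and changed no call of the 10 claudins. The highest tissue was the same for all 10 claudins with scaling or summed entries, and for 9 with annotated-strand entries. Depth could not be weighed.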
